A study of Mus musculus with 6 samples.

Results

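The complement components and regulators described here are 9 genes of the deposited mouse expression table, C1qa, C1qb, C1qc, C1ra, C4b, C3, Cfd, Serping1 and Cd55, chosen by gene name out of 55995 features, and each has 1 row. RNA was sequenced from the gastrocnemius, a calf muscle, of NOD/SCID/IL2Rγ-null (NSG) mice. Every mouse, the controls included, carried a subcutaneous xenograft on the left flank, grown from WT MDA-MB-231 human breast cancer cells injected with Matrigel. The radiotherapy group has 3 libraries: its tumours received 1 local dose of 10 Gy (6 MV X-rays at 6 Gy/min) at a size of about 800 mm3, and the muscle of the other side was collected 3 days afterwards. The control group has 3 libraries and received no irradiation. The sources used here give no age, and for controls no tumour size or collection day. Nothing in the labels states that libraries of a group came from different mice, so the p-values cover sample-to-sample spread alone, some of it possibly technical. Values are in TPM, levels per transcript length scaled to the same total in each library. No read depth accompanies them, so precision rests on 3 libraries a group.

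Complement is a cascade of plasma and tissue proteins that tags and lyses targets. C1q, built of A, B and C chains, recognises antibody or damaged surfaces and activates the protease C1r, which activates C1s. The protease C1s cleaves C4 and C2. Factor B and factor D do the corresponding work in the alternative pathway, and both routes cleave C3. C1 inhibitor restrains the cascade, and CD55 and CD59 do so on host cells. In many tissues macrophages are the main source of C1q, adipocytes of factor D, and liver, fibroblasts and myeloid cells of C3. NSG mice descend from NOD, a strain with an inherited deficiency of C5, and they lack mature lymphocytes and so antibody of their own.

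None of the 9 genes passed the test between radiotherapy and control muscles, and 8 of the 9 overlapped between the groups. The exception was Cd55, with all 3 radiotherapy libraries below every control. All 9 averaged at least 1 TPM across the 6 libraries and so were tested with limma on log2(TPM + 1), two-sided, with Benjamini-Hochberg adjustment over all 11938 features tested. At an adjusted p under 0.05, 0 members were higher and 0 lower, where 0.0419% of all features were called higher and 0.0168% lower. An unadjusted p under 0.05 was reached by 0 members as higher and 1 as lower (Cd55), and by 1.18% of all features as higher and 13.3% as lower. A position of all radiotherapy libraries below every control library was held by 1 of 9 members and by 19.3% of all features, and the opposite position by 0 members and 1.73% of features. The median log2 change of the 9 genes was -0.27, beside -0.36 for all features, and 6 of the 9 had a change below 0, beside 78.5% of all features. With median-of-ratios scaling the median of all features was -0.02 and that of the 9 genes 0.14, and the changes of C1qb, C1qc, C1ra, C3 and Serping1 turned from below to above 0. Directions below are those of the deposited scaling. In bulk muscle, fewer cells of a type and less RNA per cell cannot be told apart.

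Muscle markers were abundant in all libraries, with Ckm, the muscle creatine kinase, at 19323 to 25645 TPM in the radiotherapy libraries and 20738 to 23546 TPM in the control libraries. The 12 skeletal muscle markers summed to 210825, 213408 and 122365 TPM in radiotherapy replicates 1, 2 and 3 and to 139940 to 162198 TPM in control. Radiotherapy replicate 3 stood apart: the 12 neutrophil markers summed to 11.1, 18.7 and 2981 TPM in radiotherapy replicates 1, 2 and 3 against 74.6 to 187 TPM in control. The lymphocyte markers Cd3g and Ncr1 were listed at 0 in all libraries. Without radiotherapy replicate 3, 1.98% of features were called higher and 27.6% lower, and still 0 of the 9 complement genes were called.

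**Figure D1:**
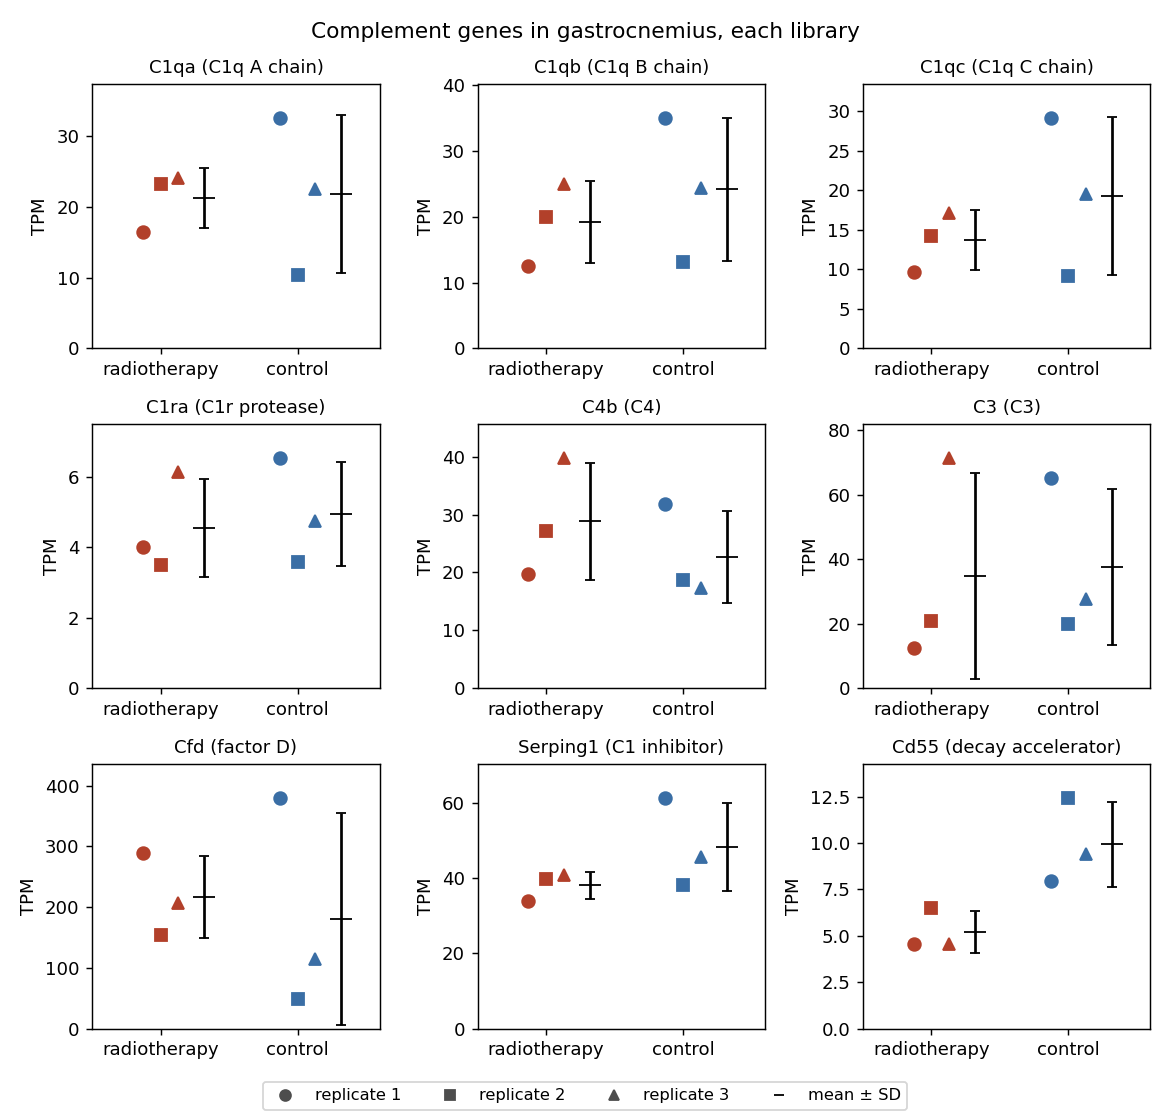
TPM of each complement gene (vertical axes from 0, own scale per panel) in the 3 radiotherapy and 3 control libraries; symbols mark the replicate and bars the mean ± SD. Cd55 alone has all radiotherapy points, at 4.53 to 6.48 TPM, below all control points, at 7.94 to 12.4 TPM.

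Factor D was the most abundant of the 9 transcripts per length and C1ra among the scarcest. In radiotherapy muscle the mean levels ran in the order Cfd (216 TPM), Serping1 (38.1), C3 (34.8), C4b (28.8), C1qa (21.3), C1qb (19.2), C1qc (13.7), Cd55 (5.18) and C1ra (4.55). In control muscle the order was Cfd (180 TPM), Serping1 (48.3), C3 (37.6), C1qb (24.2), C4b (22.7), C1qa (21.8), C1qc (19.3), Cd55 (9.92) and C1ra (4.95). Neighbours in this order from Serping1 to C1qc lay within the SD of their libraries, so their order is not fixed by 3 libraries a group.

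The C1q chains varied together from library to library and did not separate the groups. C1qa, the A chain, had 16.4, 23.3 and 24.1 TPM in radiotherapy replicates 1, 2 and 3, against 32.5, 10.3 and 22.5 TPM in control replicates 1, 2 and 3. The control group held both the highest and the lowest library, and all radiotherapy values lay between them. C1qb, the B chain, had 12.5, 20.01 and 25.1 TPM across the radiotherapy libraries, against 35, 13.1 and 24.3 TPM in the control libraries. C1qc, the C chain, had 9.68, 14.3 and 17.2 TPM across the radiotherapy libraries, against 29.1, 9.14 and 19.5 TPM in the control libraries. For all 3 chains control replicate 1 was highest, and the groups overlapped. The log2 changes were 0.08 for C1qa (SE 0.43, 95% interval -0.94 to 1.11), -0.27 for C1qb (SE 0.43, -1.28 to 0.75) and -0.36 for C1qc (SE 0.45, -1.41 to 0.69), with adjusted p-values of 0.928, 0.761 and 0.688 by limma. Each interval reaches beyond 1 on the log2 scale in at least 1 direction, so a change of that size in that direction is not excluded. One library decided several of these values: the change of C1qa was -0.35 without control replicate 2 and -0.01 without radiotherapy replicate 3, and that of C1qb was 0.04 without control replicate 1.

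The chain genes lie side by side on chromosome 4, in the order C1qb, C1qc and C1qa among protein-coding genes of RefSeq (GRCm38.p6), and none shares a 50-base stretch of its longest GENCODE M21 transcript with another gene. Promoter windows in RefSeq (GRCm38.p6) were matched for 6 of the 9 genes, which are C1qb, C1qc, C1ra, C3, Cfd and Cd55. The 250 bases before the RefSeq start of C1qb and C1qc are shown because these neighbours varied together, with capitals for matches to any of the 6 motifs searched on both strands.
C1qb (chr4:136886201-136886450, minus strand): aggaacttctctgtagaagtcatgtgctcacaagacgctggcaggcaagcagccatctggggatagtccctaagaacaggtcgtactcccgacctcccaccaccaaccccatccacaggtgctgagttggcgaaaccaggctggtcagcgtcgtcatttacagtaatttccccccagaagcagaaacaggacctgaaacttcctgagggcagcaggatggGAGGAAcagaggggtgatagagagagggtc
C1qc (chr4:136892915-136893164, minus strand): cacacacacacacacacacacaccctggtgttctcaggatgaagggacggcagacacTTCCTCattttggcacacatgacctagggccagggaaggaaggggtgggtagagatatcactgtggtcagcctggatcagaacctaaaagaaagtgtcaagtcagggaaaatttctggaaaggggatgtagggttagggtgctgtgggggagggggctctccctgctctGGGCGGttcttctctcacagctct
The core bound by ETS factors, such as the myeloid factor PU.1, was searched as GAGGAA. The GC box of housekeeping promoters was searched as GGGCGG. The TATA box near many start sites was searched as TATAAA. Binding letters of C/EBP factors were taken as TTGCNNAA. Binding letters of STAT factors were taken as TTCNNNGAA. The core of the interferon response element was taken as GAAANNGAA. Both windows hold GAGGAA, at position -30 in C1qb and, on the other strand, at -193 in C1qc, counted from the RefSeq start. It is present in 23.4% of 32526 mouse promoter windows of the same length. C1qc also holds GGGCGG at -24, a motif of 33.0% of the windows. Of the other windows matched, Cd55 holds GGGCGG on the other strand at -77 and -7, and those of C1ra and Cfd hold none of the motifs. The matches do not overlap. They describe letters in the window and were not tested for binding.

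Ratios to C1qa lay apart between the groups although the levels of the chains overlapped. The ratio of C1qc to C1qa was 0.590, 0.612 and 0.714 in radiotherapy replicates 1, 2 and 3, against 0.895, 0.885 and 0.865 in control replicates 1, 2 and 3. Every radiotherapy library lay below every control library, and the control values spanned a narrow range in spite of the 3.15-fold range of C1qa itself. The ratio of C1qb to C1qa was 0.763, 0.860 and 1.04 in the radiotherapy libraries, against 1.08, 1.27 and 1.08 in the control libraries, again without overlap. The ratio of C1qc to C1qb was 0.773, 0.712 and 0.685 in the radiotherapy libraries, against 0.832, 0.696 and 0.8003 in the control libraries, and here the groups overlapped. On the log2 scale the mean difference, radiotherapy minus control, was -0.47 for C1qc to C1qa (SD 0.15 and 0.02 in radiotherapy and control, n = 3 each; exact permutation p = 0.1, two-sided), -0.37 for C1qb to C1qa (exact permutation p = 0.1) and -0.10 for C1qc to C1qb (exact permutation p = 0.3). The smallest p that 3 against 3 libraries allow is 0.1. A ratio within a library does not depend on its scaling. These 3 ratios were examined after the values were seen, and a lower ratio shows unequal levels, without showing which chain differed. Both ratios without overlap share C1qa, so they are not independent observations. Of all features, 19.3% lay below and 1.73% above every control library, and the share among other gene ratios was not computed.

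**Figure D2:**
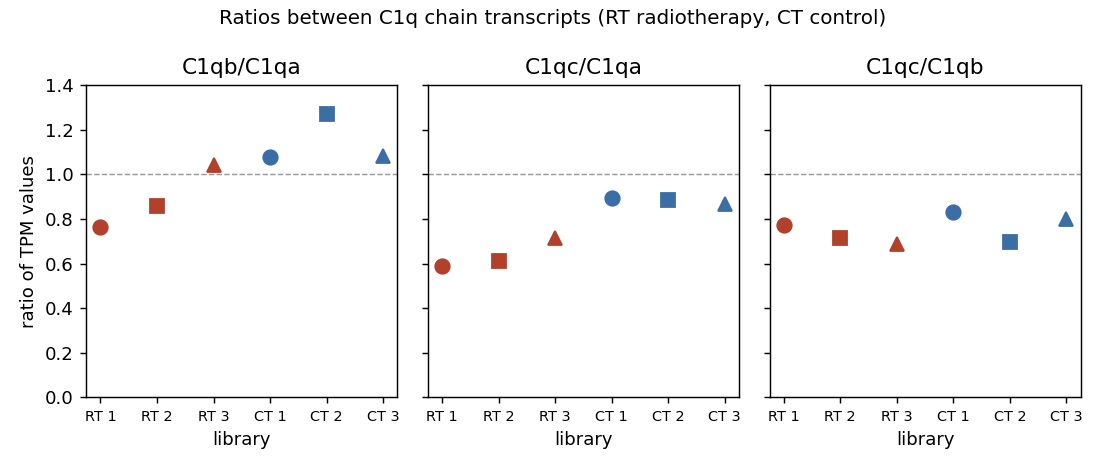
Ratio of TPM values between C1q chains in each library (vertical axis from 0, dashed line at 1; red radiotherapy, blue control). The ratio of C1qc to C1qa is 0.590 to 0.714 in the radiotherapy libraries and 0.865 to 0.895 in the control libraries.

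In radiotherapy replicate 3 the summed level of the macrophage markers was the highest of all libraries and that of the C1q chains was not. The chains summed to 38.6, 57.5 and 66.3 TPM in radiotherapy replicates 1, 2 and 3, against 96.7, 32.6 and 66.3 TPM in control replicates 1, 2 and 3. The 18 macrophage markers summed to 52.4, 89.7 and 542 TPM across the radiotherapy libraries, against 261, 71.0 and 130 TPM in the control libraries, so the C1q sum was 0.737, 0.642 and 0.122 times the marker sum in radiotherapy and 0.371, 0.459 and 0.511 times in control. A few abundant genes carried the sum of radiotherapy replicate 3: of the 18 markers 8 were highest in that library, 6 in control replicate 1 and 4 elsewhere, and 9 were lower in radiotherapy replicate 3 than in control replicate 1. Among the 9, Ctss, a lysosomal protease, was at 10.8 TPM in radiotherapy replicate 3 against 20.2 TPM in control replicate 1, and Adgre1, the F4/80 antigen, at 2.20 against 3.41 TPM, both named after their values were seen. Of the 17 markers tested 0 separated the groups, where 1.73% of all features lay above and 19.3% below every control library. The most abundant markers in the list were Lyz2, lysozyme, which neutrophils also make, and Cd68, a lysosomal protein. Lyz2 was at 22.7, 43.3 and 190 TPM in radiotherapy against 99.4, 31.3 and 65.7 TPM in control. Cd68 was at 6.53, 8.49 and 121 TPM in radiotherapy against 14.8, 4.84 and 6.79 TPM in control. Mrc1, Folr2, Lyve1 and Cd163, markers of tissue-resident macrophages picked out of that list after the values were seen, summed to 7.62, 8.46 and 8.97 TPM in radiotherapy, against 10.1, 3.96 and 14.4 TPM in control. This sum was lowest in control replicate 2, as was the C1q sum, and highest in control replicate 3, where the C1q sum was highest in control replicate 1. The part of macrophage number in the C1q levels was not tested.

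The proteases and C4, which act after C1q, overlapped between the groups. C1ra, which encodes C1r, had 4.01, 3.51 and 6.12 TPM across the radiotherapy libraries, against 6.52, 3.58 and 4.74 TPM in the control libraries. Its log2 change was -0.10 (SE 0.30, 95% interval -0.81 to 0.62, adjusted p = 0.879 by limma), which became 0.09 without control replicate 1 and 0.04 without radiotherapy replicate 2. C1s1, which encodes its partner C1s, was at 7.28, 9.20 and 9.06 TPM in radiotherapy against 14.4, 4.70 and 10.0 TPM in control. C1s1 followed C1qa more closely than any other named gene did, with a root mean square difference of 0.11 between their centred log2 levels over the 6 libraries, beside a spread of 0.49 for C1qa. C4b, the C4 gene, had 19.7, 27.1 and 39.7 TPM in radiotherapy replicates 1, 2 and 3, against 31.9, 18.8 and 17.4 TPM in control. Radiotherapy replicate 3 was the highest library and the others overlapped. The log2 change of C4b was 0.33 (SE 0.37, 95% interval -0.55 to 1.21, adjusted p = 0.657 by limma), higher than that of 91.2% of all features. Without radiotherapy replicate 3 it was 0.08, and with median-of-ratios scaling 0.74 (adjusted p = 0.441, unadjusted p = 0.0275). C1ra and C4b each share part of their sequence with a related copy. Of the 50-base windows of the longest C1ra transcript, 48.0% also occur in C1rb, and 35.2% of those of C4b in C4a. The table lists C1rb at 0.61 to 0.77 TPM in radiotherapy and 0.33 to 0.64 TPM in control, and C4a at 1.04 to 3.46 TPM in radiotherapy and 0.11 to 2.37 TPM in control. How reads shared by such copies were divided is not stated in the sources used here, so the levels of C1ra and C4b are uncertain to that extent.

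C3, the central component, varied most within the groups, next to factor D. It had 12.5, 20.8 and 71.2 TPM in radiotherapy replicates 1, 2 and 3, against 65.1, 19.9 and 27.8 TPM in control replicates 1, 2 and 3. One library of each group was high, radiotherapy replicate 3 and control replicate 1, and the remaining 4 lay between 12.5 and 27.8 TPM. Its log2 change was -0.30 (SE 0.70, 95% interval -1.95 to 1.34, adjusted p = 0.835 by limma), with a within-group SD of 1.07 on the log2 scale that exceeded that of 92.0% of all features. The change was 0.18 without control replicate 1, 0.22 without radiotherapy replicate 1 and -0.99 without radiotherapy replicate 3 (adjusted p = 0.186 by limma). Cfb, factor B, had the same high libraries, at 5.60, 13.9 and 55.9 TPM in radiotherapy against 71.8, 13.7 and 14.2 TPM in control. Cfp, properdin, which stabilises the C3 convertase, was at 4.76, 5.83 and 16.7 TPM in radiotherapy against 10.9, 4.40 and 4.26 TPM in control. Genes closest to C3 in pattern were Neurl3 (root mean square difference 0.18, beside a spread of 0.89 for C3), the Fc receptor gene Fcgr3 (0.19) and the leukocyte tetraspanin gene Cd53 (0.21). Cd53 was at 0.22, 0.54 and 5.35 TPM in radiotherapy against 5.69, 1.07 and 1.01 TPM in control. The part of leukocyte content in the C3 levels was not tested.
The 120 bases before the RefSeq start of C3 (GRCm38.p6) are shown because of the wide spread of this gene, with the only match to the 6 motifs in capitals.
C3 (chr17:57228137-57228256, minus strand): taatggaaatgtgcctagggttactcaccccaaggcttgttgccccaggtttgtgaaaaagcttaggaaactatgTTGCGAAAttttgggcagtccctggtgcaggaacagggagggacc
The match is to the C/EBP motif TTGCNNAA at -45, which 9.57% of the mouse windows of 250 bases hold. C/EBP proteins are liver and myeloid factors of acute-phase genes.

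Factor D, encoded by Cfd and also called adipsin, was the most abundant and most variable of the genes. It had 288, 154 and 206 TPM in radiotherapy replicates 1, 2 and 3, against 379, 48.4 and 114 TPM in control replicates 1, 2 and 3. The control libraries spanned a 7.83-fold range that enclosed every radiotherapy library, which themselves spanned a 1.87-fold range. The log2 change was 0.70 (SE 0.71, 95% interval -0.97 to 2.38, adjusted p = 0.616 by limma). It was 0.01 without control replicate 2 and 1.48 without control replicate 1 (adjusted p = 0.702 by limma), so control libraries decided its size. Adipoq, the adipocyte hormone adiponectin, was at 11.4, 4.21 and 1.65 TPM in radiotherapy against 15.4, 1.86 and 4.69 TPM in control. The ratio of Cfd to Adipoq was 25.2, 36.7 and 125 in radiotherapy replicates 1, 2 and 3, against 24.6, 26.0 and 24.2 in control. This ratio was nearly the same in the control libraries and radiotherapy replicate 1, and far higher in radiotherapy replicate 3. The ratio of Cfd to Plin1, a lipid droplet protein, was also highest in radiotherapy replicate 3, at 96.4, 214 and 687 in radiotherapy against 94.2, 230 and 178 in control. Cidec and Retn did not show that pattern. The ratio of Cfd to Cidec was 31.3, 30.2 and 24.5 in radiotherapy against 18.3, 38.7 and 16.9 in control, and that of Cfd to Retn, the hormone resistin, was 19.7, 20.5 and 20.9 in radiotherapy against 30.4, 17.1 and 48.4 in control. Plin1, which encodes perilipin, was at 2.99, 0.72 and 0.30 TPM in radiotherapy against 4.02, 0.21 and 0.64 TPM in control. These are mostly low levels, so the ratio of Cfd to Plin1 is imprecise. Cidec, a lipid droplet protein, was at 9.22, 5.12 and 8.42 TPM in radiotherapy against 20.7, 1.25 and 6.72 TPM in control, and was among the 3 named genes closest to Cfd in pattern (root mean square difference 0.31, beside a spread of 0.96 for Cfd), with Plcb4 (0.19) and Neat1 (0.45). The 12 adipocyte markers summed to 870 to 2249 TPM in radiotherapy and 630 to 1124 TPM in control, and most of it came from Car3, which muscle fibres also make, and Fabp4, which capillary endothelium also makes. Car3 was at 1867, 1869 and 217 TPM in radiotherapy against 562, 316 and 686 TPM in control. Fabp4 was at 293, 285 and 587 TPM in radiotherapy against 235, 262 and 318 TPM in control. In radiotherapy replicate 3, Fabp4 was the highest of all libraries, and Car3 and Adipoq were the lowest. The adipocyte markers Lep and Acvr1c were at or near 0, at up to 0.25 and 0.10 TPM. The part of fat in the muscle samples in the Cfd level was not tested.

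**Figure D3:**
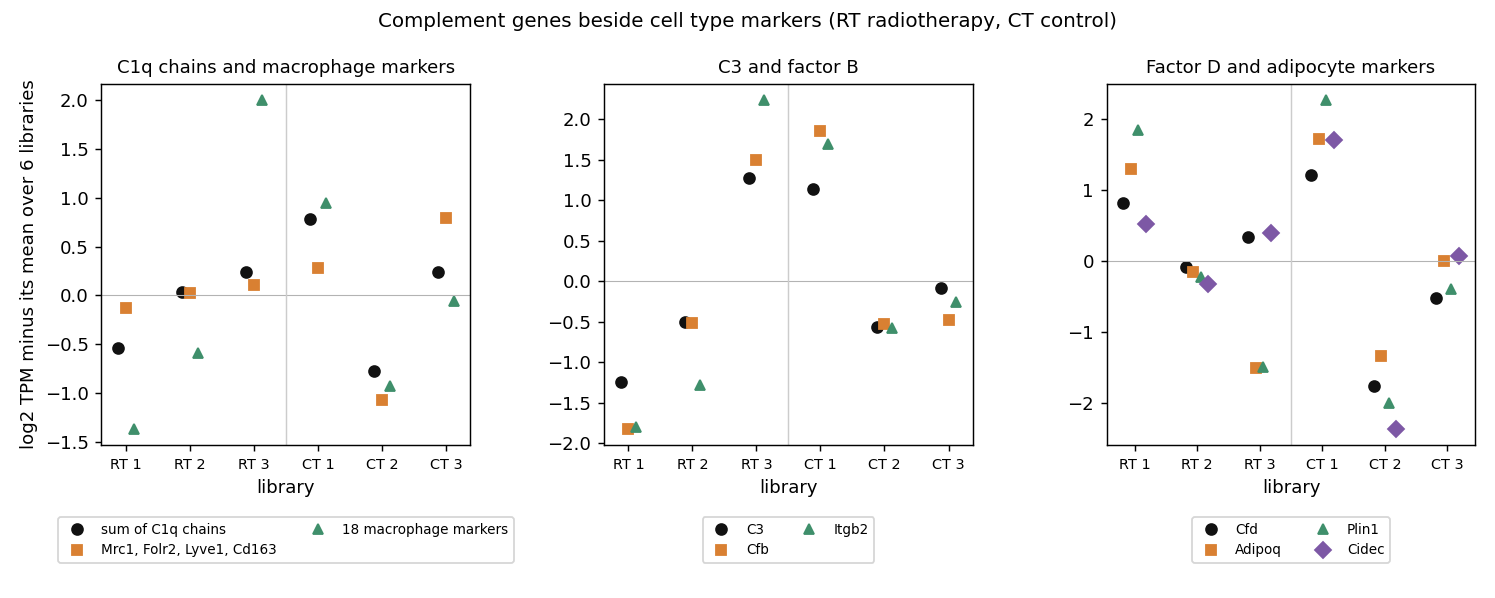
Log2 TPM minus its mean over the 6 libraries (vertical axes) for C1q beside macrophage markers, C3 beside Cfb and Itgb2, and Cfd beside adipocyte markers, with 1 point per gene or summed list in each library. In radiotherapy replicate 3 Cfd stands at 206 TPM while Adipoq stands at 1.65 TPM, and the macrophage marker sum is at 542 TPM while the C1q sum is at 66.3 TPM.

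Of the regulators, Cd55 lay below every control in all radiotherapy libraries, a position that 19.3% of all features held, and Serping1 overlapped. Cd55, decay-accelerating factor, which dissociates C3 convertases on host cells, had 4.53, 6.48 and 4.54 TPM in radiotherapy replicates 1, 2 and 3, against 7.94, 12.4 and 9.42 TPM in control replicates 1, 2 and 3. The group means were 5.18 ± 1.12 TPM in radiotherapy and 9.92 ± 2.27 TPM in control (SD, n = 3 each). The log2 change of Cd55 was -0.82 (SE 0.27, 95% interval -1.46 to -0.17), or -0.46 relative to the median of all features, and 14.9% of features had a lower change. It did not pass the test (adjusted p = 0.306, unadjusted p = 0.0200 by limma; exact permutation p = 0.1). With median-of-ratios scaling the change was -0.44 (adjusted p = 0.705 by limma), and with quantile normalisation -0.38 (adjusted p = 0.687 by limma). Without radiotherapy replicate 3 it was -0.74, with the lowest adjusted p of all settings (0.0745 by limma). Its unadjusted p there was 0.0290 by limma, above the 0.0200 with all libraries. In that setting the median change of all features was -0.57, and 27.6% of features were called lower. Of the windows of the longest Cd55 transcript, 10.9% also occur in its neighbour Cd55b, which was listed at up to 0.05 TPM in radiotherapy and 0.17 TPM in control.

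Serping1, C1 inhibitor, had 34.04, 39.7 and 40.7 TPM in radiotherapy replicates 1, 2 and 3, against 61.2, 38.3 and 45.6 TPM in control replicates 1, 2 and 3. Control replicate 2 lay inside the radiotherapy range and the other controls above it. Its log2 change was -0.31 (SE 0.28, 95% interval -0.98 to 0.36, adjusted p = 0.579 by limma), 0.05 above the median of all features. Its within-group SD of 0.26 on the log2 scale was the smallest of the 9 genes, and 18.3% of features had a smaller one. Cd59a, which blocks the membrane attack complex, was at 10.2, 12.0 and 12.4 TPM in radiotherapy against 13.7, 14.3 and 13.3 TPM in control, without overlap but with an adjusted p = 0.603 by limma. Clu, clusterin, a soluble regulator, was at 19.9, 21.7 and 155 TPM in radiotherapy against 25.9, 23.8 and 19.1 TPM in control, so radiotherapy replicate 3 alone was high. Vtn, vitronectin, which inhibits the terminal complex, was at 16.6, 16.1 and 11.1 TPM in radiotherapy against 7.81, 12.1 and 6.52 TPM in control, and the groups overlapped.

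In the rest of the pathway, 22 of 50 further complement genes were tested and 0 passed in either direction, with 0 at an unadjusted p under 0.05. Of all features, 0.0419% passed as higher and 0.0168% as lower. An unadjusted p under 0.05 was reached by 1.18% as higher and 13.3% as lower. The median log2 change of the 22 genes was -0.05, beside -0.36 for all features, and 12 of the 22 were below 0, beside 78.5% of all features. Above the median of all features, where 50% of features lie by definition, stood 19 of the 22. So did 12 of 12 skeletal muscle markers and 7 of 10 endothelial markers, so this position is not particular to complement. Among the 22 tested, 1 gene, C1s2, had all radiotherapy libraries above every control, at 1.98 to 2.74 TPM in radiotherapy and 1.4 to 1.84 TPM in control, where 1.73% of all features did. Likewise 1 of the 22, Cd59a, had them below every control, where 19.3% of all features did. By role, 9 of 17 initiators and proteases, 6 of 14 regulators, 7 of 12 receptors and 0 of 7 terminal components reached the mean of 1 TPM. Without radiotherapy replicate 3, Cd59b passed as higher and Cr1l as lower, genes named after their values were seen. In that setting 1.98% of all features passed as higher and 27.6% as lower. Cd59b, the second CD59 gene, was at 12.5, 16.1 and 6.89 TPM in radiotherapy against 7.70, 7.5 and 8.5 TPM in control. Cr1l, which encodes the rodent regulator Crry, was at 3.91, 4.50 and 12.6 TPM in radiotherapy against 9.97, 10.6 and 11.1 TPM in control. In both, radiotherapy replicate 3 lay on the other side of the controls from replicates 1 and 2.

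**Figure D4:**
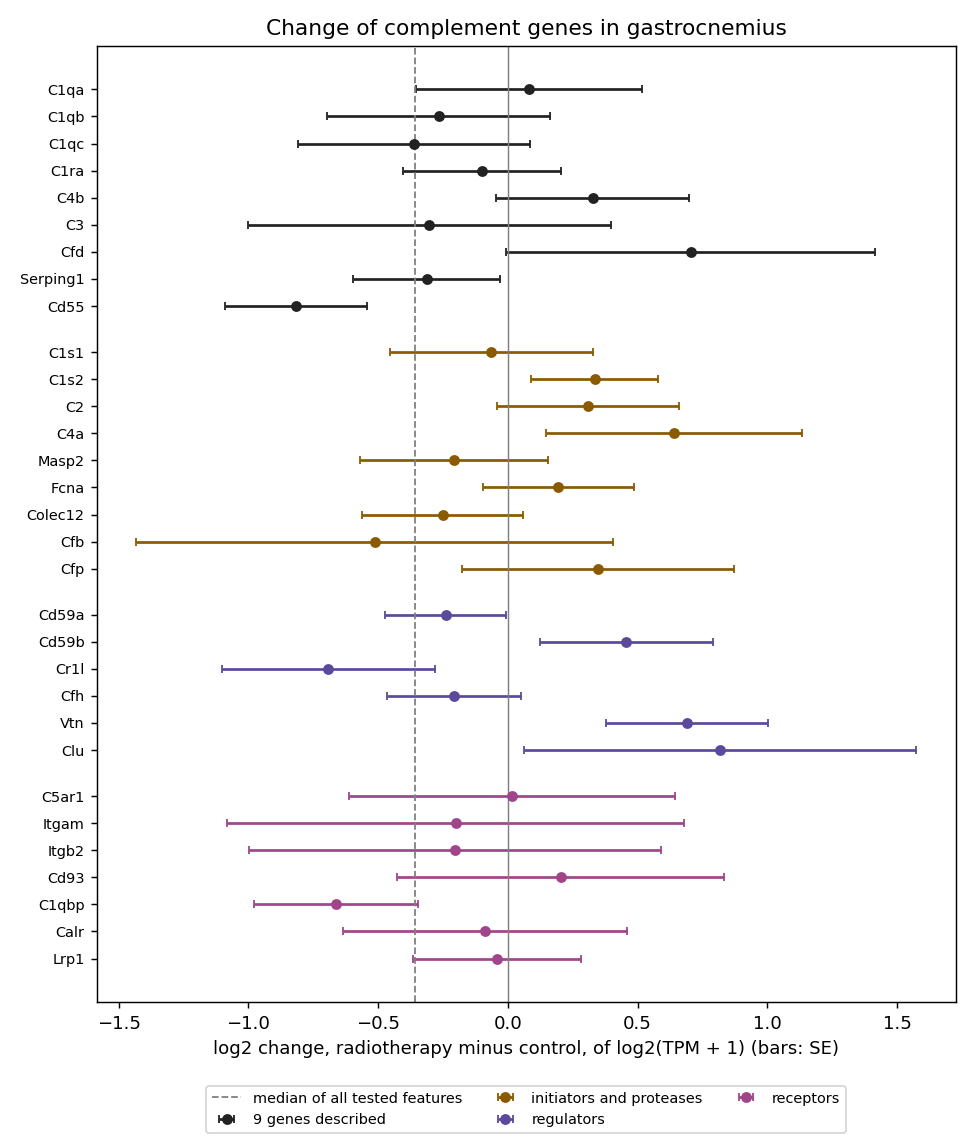
Log2 change of log2(TPM + 1), radiotherapy minus control (horizontal axis, points with SE bars), of the 9 genes and the 22 further complement genes tested. The dashed line marks the median of all tested features, -0.36, and Cd55 at -0.82 is farthest below it among the 9.

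Transcripts of the terminal pathway were close to 0 in this muscle in both groups. Hc, which encodes C5, was at 0.02, 0.06 and 0.33 TPM in radiotherapy against 0.02, 0.09 and 0.02 TPM in control, and the 7 terminal components together summed to 0.69 to 1.26 TPM in radiotherapy and 1.04 to 1.27 TPM in control. The most abundant of them, C7, C8g and C9, were at up to 0.85 TPM in radiotherapy and 0.65 TPM in control. Among receptors and binding proteins, Calr, calreticulin, was at 96.8, 75.4 and 264 TPM in radiotherapy against 132, 205 and 85.8 TPM in control. C1qbp, a mitochondrial protein that binds C1q, was at 59.9, 57.6 and 87.0 TPM in radiotherapy against 99.9, 141 and 85.7 TPM in control, and Lrp1, a scavenger receptor, was at 22.1 to 33.0 TPM in radiotherapy and 18.6 to 32.1 TPM in control. Itgb2, the beta chain of the complement receptors CR3 and CR4, was at 0.55, 0.79 and 9.05 TPM in radiotherapy against 6.20, 1.28 and 1.6 TPM in control, high in the libraries in which C3 and Cfb were high.

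Nearest patterns of the other genes were sought among named genes outside the 9, so closeness between members is not given. They were ranked by the root mean square difference of centred log2(TPM + 1) over 6 libraries. For Cd55 they were Cnksr3 (0.10), Ccdc142os (0.11) and Zfp958 (0.12), beside a spread of 0.46 for Cd55 itself. Cnksr3 was at 3.81, 5.26 and 3.19 TPM in radiotherapy against 6.97, 8.97 and 7.78 TPM in control. C1ra was followed by Chst12 (0.04), Clasrp (0.05) and Pdgfrb (0.05), the last a receptor of pericytes and fibroblasts, beside a spread of 0.29. Serping1 had Golga1 (0.04), Phlpp1 (0.06) and Tns3 (0.07), beside a spread of 0.26. C4b had Crlf2 (0.11), Cmss1 (0.14) and Snapc4 (0.14), beside a spread of 0.42. For C1qb they were Cenps (0.13), Fzd4 (0.15) and Stk38 (0.16), for C1qc Enah (0.11), Dip2a (0.19) and Aldh1a1 (0.19), and for C1qa, after C1s1, Nrbp2 (0.15) and Fgfrl1 (0.17). With 6 libraries and 11938 features such closeness is a description.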

How the data were processed

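Total RNA was prepared with Illumina's TruSeq chemistry, as the labels' protocols state. The deposited values are TPM, which the authors scaled for transcript length and total. In the submitters' processing notes stand HISAT2, StringTie, RSEM and the build mm9, without versions or roles, so no positions of the measured rows are given, and the depth is unknown. All 6 columns were matched to samples by name.

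Radiotherapy minus control was fitted with limma 3.58.1 (R 4.3.3; empirical Bayes with a trend, no covariates, two-sided) on log2(TPM + 1) for features that averaged at least 1 TPM. A fold change on this scale understates changes of low genes. The threshold was an adjusted p of 0.05. The test was run on simulated data with independent noise in each gene. That check does not cover a library that stands apart in many genes, as radiotherapy replicate 3 did. Members and lists were chosen with earlier results of these data known. Named further genes were the 3 most abundant of each complement sublist, Hc, any that passed, and the 3 nearest patterns per member (predicted models left out); C1s2, Itgb2, Retn, C1rb, C4a, Cd55b and the markers of resident macrophages were added after values were seen. Adipoq and Plin1 were also named outside this rule. Groups came from the labels. Promoters are from RefSeq, transcripts from GENCODE M21. Figures used matplotlib 3.10.9.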

Additional observations from a re-analysis of the deposited data

How the results depend on the processing

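Over 17 alternatives, 152 member changes were computed and 0 passed an adjusted p of 0.05 (lowest 0.0745); 134 kept their direction, and C4b, Cfd and Cd55 kept it throughout. Turned directions were, with median-of-ratios scaling, C1qb (0.14), C1qc (0.044), C1ra (0.25), C3 (0.11) and Serping1 (0.11); with quantile normalisation, C1qb (0.10), C1qc (0.0095), C1ra (0.26), C3 (0.079) and Serping1 (0.065); and C1ra (0.072) when rescaled without mitochondrial and the 20 most abundant genes. Leaving out each library in turn gave -0.35 to 0.43 for C1qa, -0.63 to 0.042 for C1qb, -0.29 to 0.085 for C1ra and -0.99 to 0.22 for C3. C1ra was not tested where features had to average at least 5 TPM.

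All features called higher and lower (5 and 2) became 5 and 5 with a pseudocount of 0.1, 4 and 1 for features that average at least 5 TPM, 0 and 0 without a filter, 3 and 1 with median-of-ratios scaling or quantile normalisation, 5 and 4 when rescaled, and, without both control replicate 1 and radiotherapy replicate 3 (chosen after seeing the data), 6 and 13. Leaving out each library gave 0 to 236 higher and 0 to 3298 lower, and 0 to 1 higher and 0 to 1 lower of the further complement genes. In the fit without a filter an unadjusted p under 0.05 was reached by 300 features as higher and 1996 as lower, and with the replicate block by 118 and 824. The cause was not tested. Same-numbered libraries did not deviate together (r = -0.05, -0.11 and -0.20), and no library correlated best with its own number; a replicate block left 4 higher, 0 lower and 0 of the 9 genes. The C1q ratios kept their direction without each library. The spread of 3 libraries limits detection.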
